A study of Mus musculus with 12 samples.

Results

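Neutrophil granule genes were followed by the stage of maturation at which they are used, in RNA from cells sorted as megakaryocytes (MKs). The genes were listed by their names, with earlier results of these data known, and they number 10 of the 55536 genes in the count table. The primary granule genes were Mpo, Elane, Prtn3 and Ctsg, the secondary granule genes were Ltf, Camp, Lcn2 and Ngp, and S100a8 and S100a9 stood for the cytosolic proteins of later stages. All 10 passed the filter on low counts, and none was at 0 in any library.

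MKs, the cells that shed platelets, were sorted from bone marrow (BM) and spleen of Pf4-TdTomato mice (C57BL/6) on day 5 after saline or after sepsis caused by cecal slurry. Each tissue gave a saline and a sepsis group, so that there were 4 groups of 3 libraries with 300 cells pooled in a library. All mice carried the same reporter, in which the platelet factor 4 promoter drives Cre and a cell that has once expressed Cre keeps the TdTomato label, so that the label marks the history of a cell and not its present state. The gate was CD45+, lineage negative, Tomato+, CD41+ and CD42b+. CD11b was among the lineage markers but Ly-6G was not. The study counts the replicates as separate mice, although the labels do not tie a library to an animal.

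Neutrophils are made in the BM in steps that can be read from their granules. Promyelocytes switch on the primary (azurophil) granule proteins, which are myeloperoxidase and a family of serine proteases. Myelocytes and metamyelocytes switch these genes off and turn on the secondary (specific) granule proteins, while the cytosolic S100A8 and S100A9 are abundant from then on into the mature cell. The mRNA of each set is therefore used as a marker of stage, and mature neutrophils keep the granule proteins after the mRNA of the primary set has gone. The factors PU.1 and the C/EBP family are known to act on these genes.

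Positions are those of GENCODE release 21 for the mouse on GRCm38. Elane (ENSMUSG00000020125, chr10:79886247-79888215) and Prtn3 (ENSMUSG00000057729, chr10:79874476-79883174) are neighbours 3.1 kb apart on the + strand. S100a8 (ENSMUSG00000056054, chr3:90668978-90670035) and S100a9 (ENSMUSG00000056071, chr3:90692632-90695721) lie 22.6 kb apart on opposite strands. Of the secondary granule genes, 3 share a stretch of chromosome 9, where Camp (ENSMUSG00000038357, chr9:109847379-109849617) is 570.1 kb from Ngp (ENSMUSG00000032484, chr9:110419747-110423012), and Ngp is 596.3 kb from Ltf (ENSMUSG00000032496, chr9:111019271-111042767). The others are Mpo (ENSMUSG00000009350, chr11:87793581-87804413), Ctsg (ENSMUSG00000040314, chr14:56099881-56102574) and Lcn2 (ENSMUSG00000026822, chr2:32384633-32388252). Exons of Mpo overlapped the predicted gene Gm11505 over 15.0% of their length and those of Prtn3 overlapped Plppr3 over 9.2%, so reads there could be counted for either gene.

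The promoters of 2 primary and 2 secondary granule genes are shown because the primary and the secondary set had unlike profiles over the libraries. They come from the RefSeq promoter table on GRCm38.p6, which held all 10 genes, and are printed 5′ to 3′ on the strand of the gene without the bases that GENCODE already counts as part of it. Capitals mark matches to AGGAAGT, the core letters of a PU.1 element, or to TTGCNNAA, letters bound by C/EBP factors, on either strand.
Elane, chr10:79886062-79886246 (+ strand): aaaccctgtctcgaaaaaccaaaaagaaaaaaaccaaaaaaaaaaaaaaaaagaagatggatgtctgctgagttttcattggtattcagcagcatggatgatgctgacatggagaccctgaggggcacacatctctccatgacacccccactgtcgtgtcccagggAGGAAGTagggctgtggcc
Ctsg, chr14:56102575-56102824 (− strand): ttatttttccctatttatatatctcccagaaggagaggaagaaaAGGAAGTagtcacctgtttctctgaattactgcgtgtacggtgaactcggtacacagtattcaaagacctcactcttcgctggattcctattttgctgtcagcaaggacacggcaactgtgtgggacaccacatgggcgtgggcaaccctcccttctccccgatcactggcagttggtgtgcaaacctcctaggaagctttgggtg
Ltf, chr9:111019042-111019270 (+ strand): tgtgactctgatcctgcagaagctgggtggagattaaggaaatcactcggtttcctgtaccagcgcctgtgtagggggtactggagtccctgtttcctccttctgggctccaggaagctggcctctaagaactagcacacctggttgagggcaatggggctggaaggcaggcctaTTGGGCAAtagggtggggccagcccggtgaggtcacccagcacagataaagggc
Ngp, chr9:110419558-110419746 (+ strand): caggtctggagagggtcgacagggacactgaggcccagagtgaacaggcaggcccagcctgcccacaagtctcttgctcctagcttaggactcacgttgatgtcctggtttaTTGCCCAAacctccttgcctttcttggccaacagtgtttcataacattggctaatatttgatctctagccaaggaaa
In the 250 bases before the RefSeq start, AGGAAGT was found in 5 of the 10 genes, which were all 4 primary granule genes and S100a8, against 7.69% of the 32851 promoters in the table. TTGCNNAA was found in 4 of the 10 genes, Ltf, Lcn2, Ngp and S100a9, against 9.56% of promoters. No promoter of the 10 held both. The matches in Prtn3 and Lcn2, and the match in Ngp 11 bases before the RefSeq start, lay inside the gene as GENCODE draws it. Both sets of letters were chosen after the sequences had been read, the motifs do not overlap each other in these genes, and a match describes letters and not binding. S100a8 and S100a9, which had like profiles over the libraries, held different letters. A link between the letters and the profiles was not tested.

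The libraries held between 7756762 and 27386184 counts, so that 3 counts, the limit that a count of 0 allows, correspond to between 0.105 and 0.405 CPM (the count of a gene relative to the library size, after scaling with TMM factors). Such limits cover counting error only. The MK markers Pf4 and Itga2b were found in all libraries, with lower values in most of those from spleen. Pf4, the platelet chemokine whose promoter drives the reporter, was between 9606 and 30581 CPM in the 6 BM libraries and between 476 and 2439 CPM in the 6 from spleen. Itga2b, which encodes CD41, was between 156 and 435 CPM in BM and between 6.43 and 320 CPM in spleen. The 10 genes together made up between 0.00514% (95% exact binomial interval 0.00473 to 0.00556) of counts, in spleen sepsis 2, and 2.44% (2.43 to 2.45), in BM sepsis 3.

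Of the 4 primary granule genes, Elane, Mpo and Prtn3 were highest in the 3 BM sepsis libraries, while Ctsg was also high in BM saline. Elane, which encodes neutrophil elastase, stood at 170, 19.0 and 9.37 CPM in BM saline libraries 1, 2 and 3, and at 1313, 697 and 4305 CPM in BM sepsis libraries 1, 2 and 3. It stood at 5.81, 9.90 and 2.47 CPM in spleen saline and at 0.154, 31.6 and 47.7 CPM in spleen sepsis. Every BM sepsis library was thus above every other library, and in BM sepsis 3 Elane ranked 9 among all genes per kb of exon.

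Mpo, the peroxidase that makes hypochlorous acid, was at 66.3, 30.1 and 3.34 CPM in BM saline, at 141, 862 and 811 CPM in BM sepsis, at 1.62, 2.64 and 4.83 CPM in spleen saline and at 0.154, 0.336 and 92.5 CPM in spleen sepsis. Prtn3, which encodes proteinase 3, was at 74.7, 38.9 and 44.3 CPM in BM saline, at 412, 627 and 2543 CPM in BM sepsis, at 13.4, 10.1 and 0.858 CPM in spleen saline and at 0.360, 0.448 and 87.6 CPM in spleen sepsis. In both genes, the BM sepsis libraries lay above all others, and spleen sepsis 3 was the highest of the spleen libraries.

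Ctsg, which encodes cathepsin G, was the primary granule gene with the most RNA per kb in BM saline. It was at 181, 435 and 74.8 CPM in BM saline, at 375, 400 and 1543 CPM in BM sepsis, at 2.57, 57.3 and 1.07 CPM in spleen saline and at 1.34, 0.224 and 71.4 CPM in spleen sepsis. The BM groups overlapped for Ctsg, unlike for the other 3 genes. The ratio of Ctsg to Elane CPM was 1.07, 22.9 and 7.99 in BM saline libraries 1, 2 and 3, and 0.286, 0.574 and 0.358 in BM sepsis. The 2 groups did not overlap in this ratio, which was chosen after the values were seen and was not tested.

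**Figure D1:**
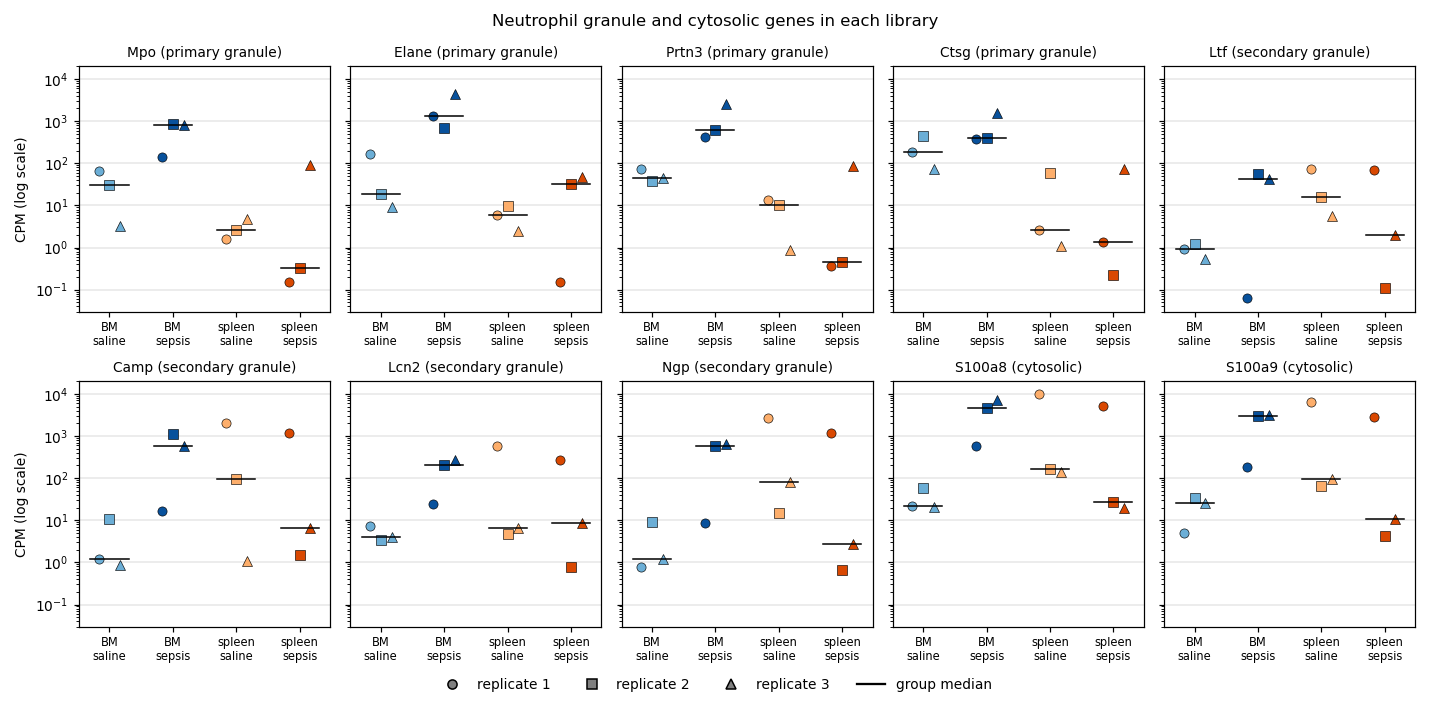
Level of each of the 10 genes (CPM on TMM-scaled library sizes, log axis) in the 4 groups, with 1 symbol per library (circle, square and triangle for replicates 1, 2 and 3) and a line at the group median. Elane, Mpo and Prtn3 are highest in the 3 BM sepsis libraries, while the secondary granule genes and S100a8 and S100a9 are also high in spleen saline 1 and spleen sepsis 1.

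The secondary granule genes followed another pattern, in which single libraries stood out within their groups. Camp, which encodes the cathelicidin antimicrobial peptide, was at 1.20, 10.7 and 0.861 CPM in BM saline and at 16.6, 1087 and 591 CPM in BM sepsis. In spleen it was at 2001, 97.8 and 1.07 CPM after saline and at 1183, 1.46 and 6.41 CPM after sepsis. The 4 highest libraries were BM sepsis 2, BM sepsis 3, spleen saline 1 and spleen sepsis 1.

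Ngp, a neutrophil granule protein related to the cathelicidins, was at 0.773, 9.15 and 1.18 CPM in BM saline, at 8.48, 573 and 642 CPM in BM sepsis, at 2745, 14.8 and 79.3 CPM in spleen saline and at 1159, 0.672 and 2.72 CPM in spleen sepsis. Lcn2, the siderophore-binding lipocalin that withholds iron from bacteria, was at 7.48, 3.48 and 3.98 CPM in BM saline, at 24.0, 199 and 276 CPM in BM sepsis, at 592, 4.70 and 6.44 CPM in spleen saline and at 276, 0.784 and 8.83 CPM in spleen sepsis. Both genes had the same 4 libraries on top as Camp.

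Ltf, which encodes lactoferrin, had the lowest mean of the set in every group. It was at 0.945, 1.19 and 0.538 CPM in BM saline, at 0.0652, 55.6 and 43.5 CPM in BM sepsis, at 75.1, 15.8 and 5.47 CPM in spleen saline and at 69.1, 0.112 and 1.94 CPM in spleen sepsis. The values for BM sepsis 1 and spleen sepsis 2 each rest on 1 read, below the limit of 3 counts. In BM saline, Ltf had between 5 and 12 reads per library.

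S100a8 and S100a9, the subunits of the calcium- and zinc-binding complex calprotectin, were the most abundant of the 10 genes per kb of exon where the secondary granule genes were high. S100a8 was at 22.3, 57.9 and 20.5 CPM in BM saline, at 588, 4740 and 7098 CPM in BM sepsis, at 9679, 162 and 142 CPM in spleen saline and at 5140 (library 1), 27.5 and 19.3 CPM in spleen sepsis. S100a9 was at 5.07, 33.4 and 26.0 CPM in BM saline, at 180, 2935 and 3181 CPM in BM sepsis, at 6465, 65.8 and 97.8 CPM in spleen saline and at 2830, 4.26 and 10.9 CPM in spleen sepsis. In BM sepsis 3, S100a8 ranked 4 and S100a9 ranked 5 among all genes per kb of exon. The same 4 libraries were highest as for Camp, Lcn2 and Ngp.

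Sums per stage were set side by side per kb of exon, in CPM per kb, so that genes of different length could be added. In BM saline libraries 1, 2 and 3 the primary sum was 410, 471 and 109, and the secondary sum was 5.34, 23.3 and 3.78. The primary set was above the secondary set in each of these libraries, at log2 ratios of 6.26, 4.34 and 4.84. In BM sepsis the primary sum was 1977, 1709 and 7574 and the secondary sum was 38.0, 1995 and 1423, with log2 ratios of 5.70, −0.22 and 2.41. BM sepsis 1 thus had high primary but low secondary granule RNA, and the other 2 libraries had both.

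Spleen libraries fell into other combinations. In spleen saline the primary sum was 16.6, 72.2 and 5.45 and the secondary sum was 5134, 148 and 70.3 CPM per kb, with log2 ratios of −8.27, −1.03 and −3.69. In spleen sepsis the primary sum was 1.70, 32.7 and 195 and the secondary sum was 2634, 2.80 and 14.6 CPM per kb, with log2 ratios of −10.59, 3.54 and 3.74. The secondary sum was 309-fold the primary sum in spleen saline 1 and 1546-fold in spleen sepsis 1, where Mpo and Elane each had 3 reads. All 3 spleen saline libraries had more secondary than primary granule RNA and all 3 BM saline libraries had less. The cytosolic sum was highest where the secondary sum was, at 12453 and 16322 CPM per kb in BM sepsis 2 and 3 and at 26332 in spleen saline 1. It was between 41.8 and 147 in BM saline. The 2 sums did not run together in every library. BM sepsis 1 had a cytosolic sum of 1192 CPM per kb, above the 359 and 392 of spleen saline 2 and 3, although its secondary sum was below theirs. From pooled cells, a smaller number of neutrophil-lineage cells and less of this RNA per cell cannot be told apart.

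**Figure D2:**
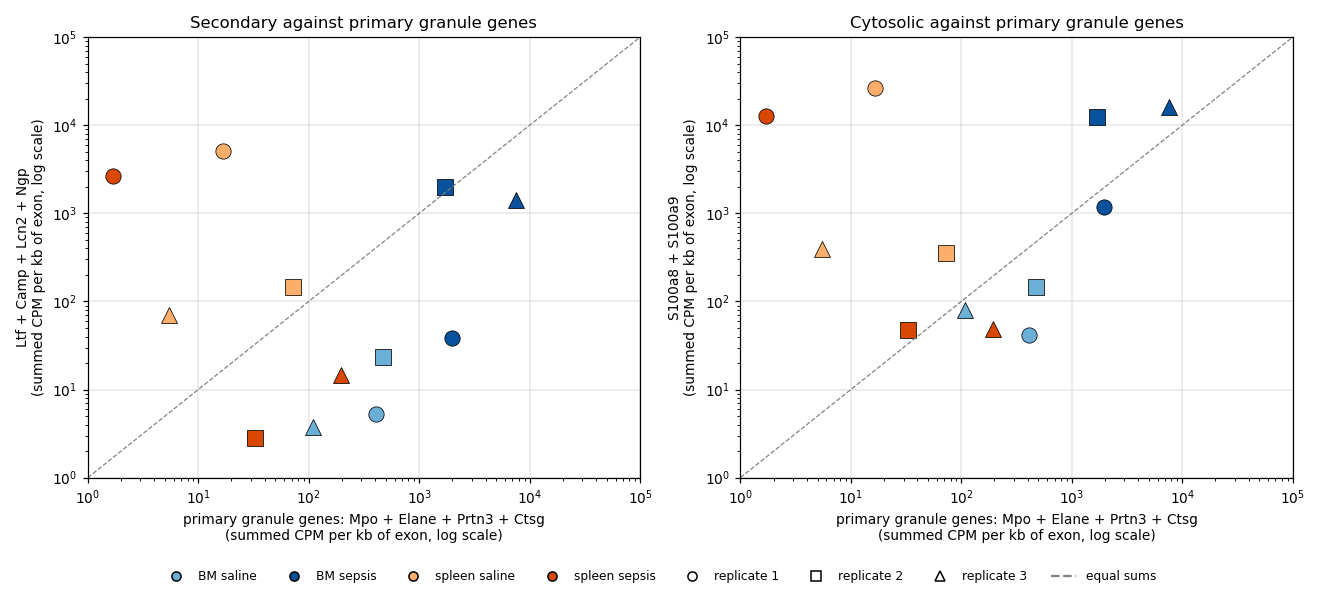
Sum of the secondary granule genes (left) and of S100a8 and S100a9 (right) against the sum of the primary granule genes in each of the 12 libraries, in CPM per kb of exon on log axes, with the dashed line at equal sums. BM sepsis 2 and 3 are high on both axes, spleen saline 1 and spleen sepsis 1 are high on the vertical axis alone, and BM sepsis 1 is high in primary and low in secondary granule RNA (1977 and 38.0 CPM per kb).

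Only a few neighbours in the order of group means were apart. For Mpo, Elane and Prtn3, BM sepsis came first and did not overlap BM saline, which was next. For Ctsg, BM saline did not overlap spleen sepsis, which was next in order. Every other pair of neighbouring groups overlapped in all 10 genes. The spread within groups was wide, as in Elane, with means of 66.0 ± 89.9 (BM saline), 2105 ± 1930 (BM sepsis), 6.06 ± 3.72 (spleen saline) and 26.5 ± 24.2 CPM (spleen sepsis; SD, n = 3). S100a8 was at 33.5 ± 21.1, 4142 ± 3296, 3328 ± 5501 and 1729 ± 2954 CPM in the same order (SD, n = 3).

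The tissue of residence was compared first, in mice without sepsis. The 4 pairwise comparisons share libraries with one another, so their values are given side by side. After saline, the 4 primary granule genes had higher values in BM than in spleen, at log2 fold changes between 2.70 and 3.50, and the 6 secondary and cytosolic genes had higher values in spleen, at log2 fold changes (BM minus spleen) between −8.00 and −5.15. None of the 10 differences passed edgeR's quasi-likelihood test (Benjamini-Hochberg adjusted p between 0.114 and 0.404), which called 1.25% of all 20263 tested genes. An unadjusted p under 0.05 was found for 9 of the 10, and for 12.5% of all genes. DESeq2 called 3 of the 10 and 5.94% of all genes, and gave no adjusted p for Ngp and S100a9 in any comparison. The median was 3.45 for the primary set, −6.34 for the secondary set and −6.66 for the cytosolic pair, beside −0.28 over all genes.

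Ngp differed most, at −8.00 ± 2.41 (SE), and S100a8 had the lowest adjusted p, with −6.63 ± 1.90 (SE) and edgeR adjusted p = 0.114. All 3 spleen libraries were above all 3 BM libraries in 4 genes, Ltf, Ngp, S100a8 and S100a9, an order that 7.0% of all genes showed. All 3 BM libraries were above all 3 spleen libraries in Prtn3 and Ctsg, an order that 11.3% of all genes showed. Much of the size of the later genes' differences came from spleen saline 1. Without that library, the difference was −3.67 for Ngp, −2.18 for S100a8, −1.93 for S100a9 and −0.16 for Lcn2, still with the lower values in BM. Of the primary genes, Elane went from 3.44 to 1.27 without BM saline 1, and Ctsg went from 3.50 to 6.99 without spleen saline 2.

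After sepsis, the primary granule genes had higher values in BM, and 1 of them passed the test. Elane was higher in BM MKs by 6.32 ± 1.42 on the log2 scale (SE; a fold of 79.6), and was the 1 gene of the 10 that passed (edgeR adjusted p = 0.0231), where 1.78% of all genes did. Prtn3 differed by 5.34 ± 1.51, Ctsg by 4.99 ± 1.60 and Mpo by 4.29 ± 1.53 (SE), with edgeR adjusted p of 0.0905, 0.165 and 0.246. In all 4 genes every BM library was above every spleen library, an order that 11.0% of all genes showed. Without spleen sepsis 3 the differences were 11.5 for Prtn3, 9.85 for Ctsg and 11.3 for Mpo. The secondary and cytosolic genes differed by between 0.07 and 1.26, with edgeR adjusted p between 0.797 and 1.0. Their 95% intervals were wide, from −3.62 to 3.77 for Ngp, so that differences of several units in either direction remain possible. These small differences rested on spleen sepsis 1. Without it they were 4.99 for Ltf, 7.16 for Camp, 5.11 for Lcn2, 7.89 for Ngp, 7.47 for S100a8 and 8.11 for S100a9. In that fit S100a8 and S100a9 passed in edgeR, where 274 of the 20263 tested genes did.

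The call of Elane depended on single libraries. It was lost without BM sepsis 3 (5.39, edgeR adjusted p = 0.0620), without spleen sepsis 2 (6.46, adjusted p = 0.0932), without spleen sepsis 3 (7.06, adjusted p = 0.0591) and in limma-voom (9.43, adjusted p = 0.224). It was kept in the other 16 of the 20 alternatives, and the adjusted p over all of them ranged from 3.50e-21 to 0.224. Over all genes, edgeR called 361 with all 12 libraries, 206 without BM sepsis 3, 246 without spleen sepsis 2 and 426 without spleen sepsis 3, and limma-voom called 724.

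The effect of sepsis was then compared within each tissue. In BM, all 10 genes were higher after sepsis, with log2 fold changes between 1.75 for Ctsg and 7.05 for Camp. The differences were 6.95 ± 1.93 for S100a8, 6.61 ± 2.06 for S100a9, 4.99 ± 1.33 for Elane, 4.50 ± 1.45 for Prtn3 and 4.18 ± 1.52 for Mpo (SE). None passed in edgeR's fit over all 12 libraries (every adjusted p = 1.0), which called 0.0% of all genes in this comparison. An unadjusted p under 0.05 was found for 9 of the 10, against 3.54% of the 20263 tested genes. DESeq2 called 1 (S100a8) of the 10 and 0.624% of all genes, with no adjusted p for Ngp and S100a9, and limma-voom called 0 genes.

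In edgeR's fit of the 6 BM libraries alone, 8 of the 10 genes passed, all but Ctsg and Ltf, where 0.0987% of all genes did, or 20 genes. In 7 genes, Mpo, Elane, Prtn3, Camp, Lcn2, S100a8 and S100a9, every BM sepsis library was above every BM saline library, an order that 4.79% of all genes showed. The median over the 10 genes was 5.13, beside −0.08 over all genes.

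In spleen, sepsis and saline did not separate. The 4 primary granule genes had log2 fold changes (sepsis minus saline) between 0.25 and 3.35, and the 6 later genes between −1.29 and −0.44, with edgeR adjusted p between 0.382 and 0.987. None of the 10 was called, where 0.158% of all genes were, and the groups overlapped in all 10 genes. For 9 of the 10 genes, all but Elane, the sign turned when 1 library was left out. The values of the later genes turned on spleen saline 1 and spleen sepsis 1, as in Camp, whose difference of −0.82 became 3.004 without spleen saline 1 and −7.47 without spleen sepsis 1. Those of Mpo and Prtn3 turned on spleen sepsis 3, and the Mpo difference of 3.35 became −3.68 without it.

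The interaction, which asks whether sepsis acted differently in the 2 tissues, was positive in all 10 genes. It was between 0.84 and 2.87 for the primary set, between 5.63 and 8.07 for the secondary set and 7.89 and 7.83 for S100a8 and S100a9, in log2 units (effect in BM minus effect in spleen). None was called (edgeR adjusted p between 0.543 and 0.990), and 0.0% of all genes were. An unadjusted p under 0.05 was found for the 6 later genes, none of the 4 primary ones and 7.68% of all genes. DESeq2 called 0 of the 10 and 2.42% of all genes, with no adjusted p for Ngp and S100a9. Single libraries moved these values. Without spleen saline 1 the interaction was 0.97 for Lcn2, 3.74 for Ngp and 3.08 for S100a9, without spleen sepsis 1 it was 15.9 for Ngp, and without spleen sepsis 3 it was 7.86 for Mpo and 8.82 for Prtn3.

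**Figure D3:**
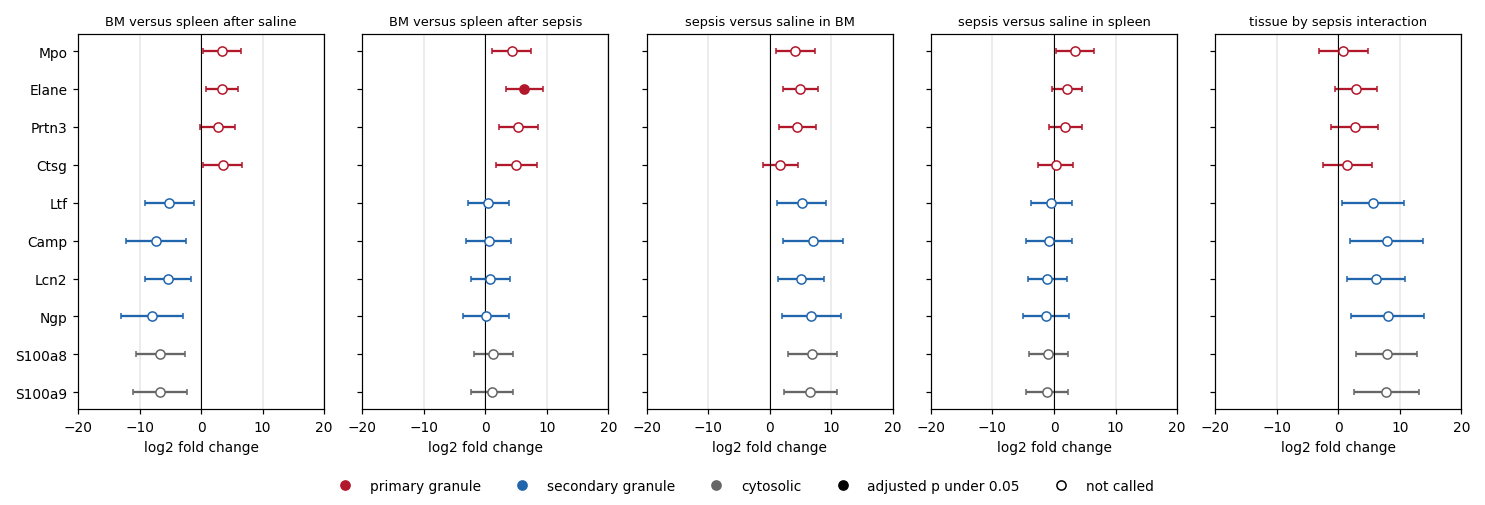
Log2 fold change of each gene in the 4 pairwise comparisons and the interaction (first group minus second, edgeR, 12 libraries), with bars for the 95% interval. The filled point is Elane after sepsis (6.32), the 1 value with an adjusted p under 0.05, and primary (red) and later genes (blue and grey) lie on opposite sides of 0 in the comparison of tissues after saline.

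Other genes of the neutrophil programme were read from lists. Of 10 further genes of promyelocytes and primary granules, 1 was called. After saline, 5 of the 10 had higher values in BM and 5 had lower ones, with a median of −0.01 beside −0.28 over all genes. After sepsis, 9 had higher values in BM and 1 had a lower one, with a median of 1.62 beside −0.18. Ms4a3, a membrane protein of granulocyte and monocyte progenitors that is also made by basophils, was at 196, 362 and 137 CPM in BM saline, at 411, 464 and 1903 CPM in BM sepsis, between 3.24 and 16.9 CPM in spleen saline and between 1.79 and 15.8 CPM in spleen sepsis. It was higher in BM by 4.67 ± 0.88 (SE) on the log2 scale in saline mice (edgeR adjusted p = 0.00943) and by 6.81 ± 0.97 (SE) in septic mice (adjusted p = 0.000607). Prss57, another serine protease of these granules, had 7.78 ± 2.06 after sepsis (SE; edgeR adjusted p = 0.0633), with 40.7% of its exon length shared with Fstl3. Ctsc, the protease that activates the elastase family, had values of the opposite sign, −1.38 after saline and −1.70 after sepsis (edgeR adjusted p = 0.408 and 0.348).

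Of 16 further genes of secondary and later granules, none was called in any comparison, by edgeR. After saline all 16 had lower values in BM than in spleen, with a median of −2.83 beside −0.28 over all genes. In BM, 11 of the 16 had higher values after sepsis. Chil3, the chitinase-like protein Ym1, was at 0.258, 8.05 and 28.3 CPM in BM saline, at 27.1, 166 and 234 CPM in BM sepsis, between 49.3 and 532 CPM in spleen saline and between 1.36 and 195 CPM in spleen sepsis. Cybb and Cyba, the membrane subunits of the NADPH oxidase, are shared with macrophages and B cells, and differed by −2.99 and −1.54 after saline (edgeR adjusted p = 0.122 and 0.160).

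Of 8 transcription factors of granulopoiesis, none was called in any comparison, among them Cebpa, Cebpb and Cebpd. Cebpe, the factor needed for secondary granules, was at 0 in all 3 spleen saline libraries and in 2 of 3 BM saline libraries, and at 3.13, 6.55 and 9.54 CPM in BM sepsis libraries 1, 2 and 3. It was at 1.13, 2.58 and 1.26 CPM in spleen sepsis libraries 1, 2 and 3, so that spleen saline 1, the library with the most Ngp, had no read of Cebpe.

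Surface markers of neutrophils were sparse, and none of 10 was called in any comparison. Ly6g, which encodes the Ly-6G antigen of mature neutrophils, was at 0 in 2 BM saline libraries and at 0.108 CPM in the third, and at 0, 2.21 and 0.140 CPM in BM sepsis. It was at 1.35, 9.65 and 0 CPM in spleen saline and at 14.0, 0 and 0 CPM in spleen sepsis. Spleen sepsis 1, with 14.0 CPM of Ly6g, was also the spleen sepsis library with the high secondary sum, whereas in spleen saline the highest Ly6g was in library 2 and the highest secondary sum in library 1. Csf3r, the receptor for G-CSF, was at 0 in 2 BM saline libraries, at up to 5.16 CPM in BM sepsis and at up to 25.7 CPM in spleen saline. In spleen sepsis libraries 1, 2 and 3, Csf3r was at 0, 4.26 and 0.097 CPM. Cxcr2, the receptor for neutrophil chemokines, was at up to 6.87 CPM in BM saline and 30.2 CPM in spleen saline, and at 0.411, 0.896 and 4.85 CPM in spleen sepsis. Trem1 and Il1r2 were highest of that group in library 1, at 11.8 and 8.33 CPM, so the markers did not share 1 order there. The summed level of the 10 markers was between 101 and 153 CPM in BM saline, 60.4 and 216 in BM sepsis, 290 and 652 in spleen saline and 121 and 623 in spleen sepsis, and Trem1 was at 0 throughout spleen saline and Fpr1 throughout spleen sepsis.

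Receptors for the secreted products were low in these cells. None of the 4 genes Tlr4 and Ager (for S100A8 and S100A9), Slc22a17 (for lipocalin 2) and Lrp1 (for lactoferrin) was called, and their sum was between 3.83 and 15.1 CPM in BM and between 26.2 and 110 CPM in spleen.

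**Figure D4:**
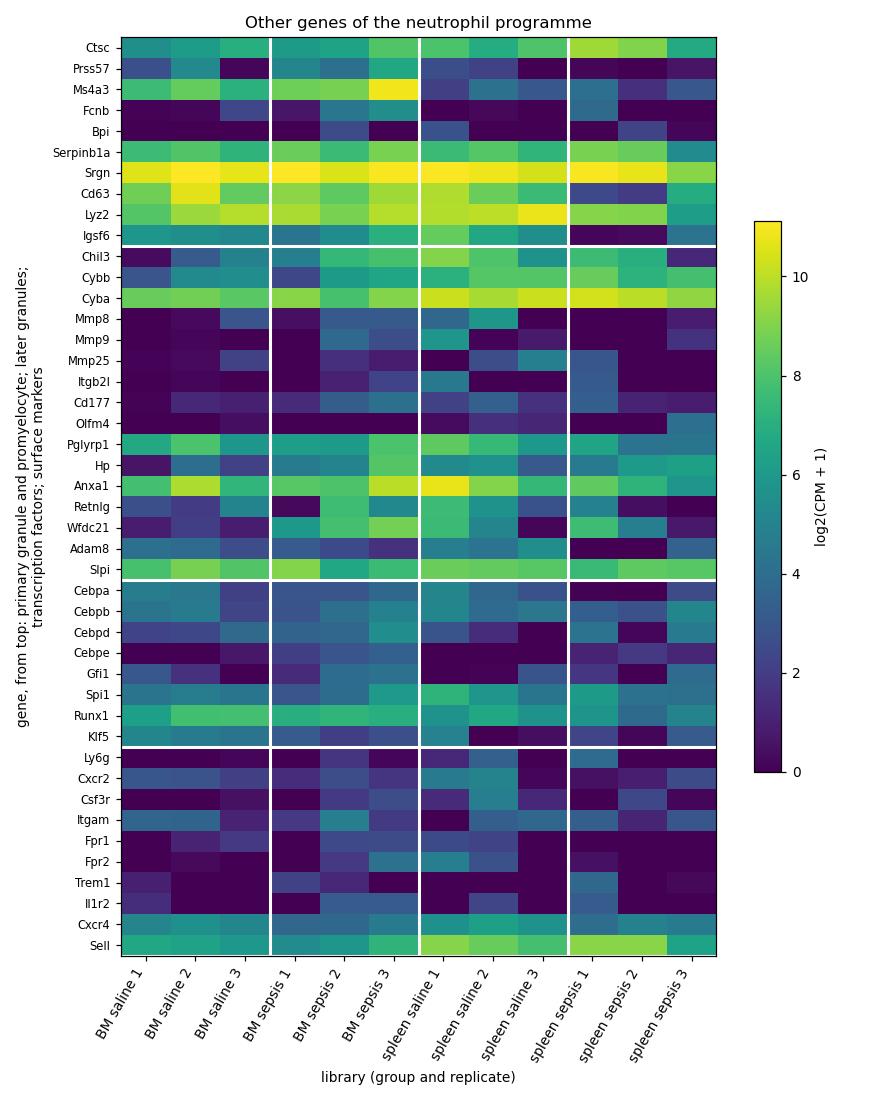
Log2(CPM + 1) of 44 further genes of the neutrophil programme (rows) in the 12 libraries (columns), with white lines between the lists and between the groups. Few rows separate the groups as a block, Ms4a3 is bright in the 6 BM libraries, and the surface markers at the foot, Ly6g among them, are dark in most libraries.

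Markers of other cells were set beside these values. The 13 MK markers summed to between 23398 and 26156 CPM in BM saline, 11774 and 47675 in BM sepsis, 1356 and 3528 in spleen saline and 1225 and 2342 in spleen sepsis. All 13 had higher values in BM after either treatment, and those called included Pf4, Vwf, Itgb3 and Treml1 after saline and Pf4 and Ppbp after sepsis. Pf4 differed by 3.99 ± 0.62 (SE) in saline mice and by 4.81 ± 0.64 (SE) in septic mice, with edgeR adjusted p of 0.00197 and 0.000336. Within BM sepsis the MK sum was 47675 CPM in library 1, which had the lowest secondary sum, and 15584 and 11774 CPM in libraries 2 and 3. Spleen saline libraries 1 and 2 had MK sums of 1359 and 1356 CPM, with secondary sums of 5134 and 148 CPM per kb. The part of the mix of cells in the differences of the granule genes was not tested.

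Basophil genes, which mark cells that also hold serine proteases, were abundant in 9 of the 12 libraries. The 6 basophil genes, led by the proteases Mcpt8 and Prss34, summed to between 4948 and 29073 CPM in BM saline, 2586 and 6596 in BM sepsis, 3024 and 4971 in spleen saline and 33.8 and 674 in spleen sepsis. The highest basophil sum was in BM saline 2, which had the highest Ctsg of BM saline (435 CPM) and a ratio of Ctsg to Elane of 22.9. In BM saline libraries 1, 2 and 3 the basophil sums were 10876, 29073 and 4948 CPM, with Ctsg at 181, 435 and 74.8 CPM. The library with the highest Ctsg, BM sepsis 3 (1543 CPM), had a basophil sum of 6596 CPM. Spleen saline libraries 1, 2 and 3 had sums of 4971, 3412 and 3024 CPM, with Ctsg at 2.57, 57.3 and 1.07 CPM. In septic mice, Mcpt8, Prss34, Cpa3 and Ms4a2 were higher in BM than in spleen, by 4.29, 4.44, 4.90 and 3.84 (edgeR adjusted p = 0.0141, 0.0235, 0.00500 and 0.0328). Within BM, all 6 basophil genes had lower values after sepsis than after saline, at a median of −1.58, and none was called. Within spleen, Cpa3 and Ms4a2 were lower after sepsis than after saline, at −5.04 and −5.07 (edgeR adjusted p = 0.0307 and 0.0400). The part of basophils in the Ctsg values was not tested.

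Among the remaining lists, B and plasma cell genes were higher in spleen. The B and plasma cell genes Cd79a, Cd79b, Ms4a1, Jchain and Mzb1 were lower in BM than in spleen after either treatment (called by edgeR in both comparisons), and the list of 7 such genes summed to between 52561 and 84251 CPM in spleen saline against 1681 and 4851 in BM saline. Of 8 monocyte genes, Ly6c2 was lower in BM after saline (−2.75, edgeR adjusted p = 0.0406) and none was called elsewhere, Csf1r and Ccr2 among them. The monocyte sum was between 126 and 384 CPM in BM saline, 399 and 1190 in BM sepsis, 736 and 1297 in spleen saline and 364 and 490 in spleen sepsis. Il5ra was the 1 eosinophil gene called (−8.70 after saline, edgeR adjusted p = 0.0194), and Ear6 was at 0 in all 12 libraries, Ear1 in 11 of them, and Prg2 and Epx were not called. None of 8 erythroid genes (Hba-a1, Hba-a2 and Hbb-bs among them) was called.

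The genes whose pattern over the 12 libraries was most like each set were taken by Pearson's r with the mean centred log2 CPM of the set, as a description. For the primary set they were Klf9 (0.957), Mt1 (0.898), Sdsl (0.893), Scarf1 (0.880) and Heatr3 (0.879). For the secondary set they were Itgb2l (0.907), Lzts3 (0.905), Lrg1 (0.902), Dld (0.891) and Cfap74 (0.869). For S100a8 and S100a9 they were Gca (0.901), Slc16a5 (0.888), Lzts3 (0.886), Itgb2l (0.876) and Ifitm6 (0.876). Without the 2 libraries farthest from the median of the set, r stayed between 0.808 and 0.958. Lzts3 and Itgb2l appeared for both later sets, neither appeared for the primary set, and both were sparse, at up to 3.65 and 21.4 CPM.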

How the data were processed

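RNA was measured in 12 libraries of 300 sorted cells, made by the authors with the SMART-Seq HT and Nextera XT kits. The authors deposited raw read counts per gene, whole numbers with no normalization. The submitters' processing notes list STAR 2.7.2b, DESeq2 1.26, R 3.6.1 and GRCm38, and for annotation, counting options, use of strand and read filters nothing was given in these sources. All 55536 identifiers were found in GENCODE mouse release 21, from which positions, exon lengths and overlaps between genes were taken.

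Genes were kept by filterByExpr (minimum count 10, 20263 genes), scaled with TMM factors and fitted in edgeR 4.0.16 (R 4.3.3) with 1 mean per group, leaving 8 residual degrees of freedom and 11.1 prior ones. The quasi-likelihood F test was adjusted by Benjamini-Hochberg over all genes, with calls at an adjusted p under 0.05, and the SE is the log2 fold change divided by the square root of F. Depth ran from 7756762 to 27386184 counts, and precision was limited by the variation among libraries rather than by depth, with a biological coefficient of variation, from the common dispersion, of 143%. The edgeR steps were run on simulated counts for the comparison of sepsis with saline in BM, and not for the other comparisons.

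Alternatives were other scalings, other filters, the replicate number as a block, DESeq2 1.42.0, limma-voom (limma 3.58.1) with quality weights, a fit of the 2 groups compared alone, and leaving out each library. The 10 genes and all lists were chosen with earlier results of these data known. All 10 genes were named, and of the other lists (promyelocyte and primary granule, later granule, transcription factor, surface marker, receptor, MK, monocyte, eosinophil, basophil, B and plasma cell, and erythroid genes) the first 3 genes and those called in any of the 5 comparisons, with a few others chosen after their values were seen. Some genes of these lists are not reported here. Python 3.11.15 with pandas 2.3.3, scipy 1.17.1 and matplotlib 3.10.9 was used for tables and plots.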

Additional observations from a re-analysis of the deposited data

How the results depend on the processing

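The number of the 10 genes called depended on the setting more than their direction did. After saline, BM against spleen gave 0 calls, and gave 10 with no expression filter (of 529 genes called in all), 3 in DESeq2 (of 1053), 2 with the 2 groups alone (of 246) and 0 to 3 when a library was left out (3, of 283, without spleen sepsis 1). After sepsis it gave 1 call, and gave 5 with no expression filter (of 595), 3 with the replicate block (of 401), 2 in DESeq2 (of 1248) and 0 in limma-voom (of 724). When a library was left out it gave 0 to 3 calls. There were 0 without BM sepsis 3 (of 206) or spleen sepsis 2 (of 246), and 3 without spleen sepsis 1 (of 274) or spleen sepsis 3 (of 426). Sepsis against saline gave 0 calls in BM, and gave 9 with no expression filter (of 81), 1 in DESeq2 (of 220) and 8 with the 2 groups alone (of 20), and it gave 0 in spleen, and 2 with no expression filter (of 187). The interaction gave 0 calls, and gave 6 with no expression filter (of 130) and 0 to 1 when a library was left out (1, Prtn3, of 15, without spleen sepsis 3). The cause of these changes was not tested.

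Of 980 values of the 10 genes under the alternatives, 890 kept direction and side of the threshold, 57 became called, 4 lost the call and 29 changed sign, and DESeq2 gave no adjusted p for 10 (Ngp and S100a9). All signs held under both other scalings, although library size alone moved the median BM minus spleen value over all genes from −0.28 to 0.20 (saline) and from −0.18 to 0.34 (sepsis). For sepsis against saline in spleen, limma-voom turned Mpo to −2.09, Elane to −0.67, Prtn3 to −2.22 and Ctsg to −1.87, and the replicate block turned Prtn3 to −0.35 and Ctsg to −0.24. Leaving out a library there gave ranges that include both signs: Mpo −3.68 to 3.93, Prtn3 −4.31 to 2.44, Ctsg −4.61 to 3.74, Ltf −4.95 to 1.15, Camp −7.47 to 3.004, Lcn2 −5.38 to 4.09, Ngp −9.11 to 3.04, S100a8 −7.15 to 3.51 and S100a9 −8.19 to 3.54. The same held for BM against spleen after sepsis in Ltf (−0.10 to 4.99), Camp (−0.23 to 7.16) and Ngp (−0.51 to 7.89), and for the interaction of Ctsg (−2.00 to 6.35). Libraries with the same replicate number did not deviate together (r between −0.0566 and 0.0447 over 18 pairs), so the block rests on a shared number alone.

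With 3 libraries in a group and a spread of this size, the intervals span several log2 units. Values at 1 to 3 counts, as for Ltf in BM sepsis 1 and spleen sepsis 2 and for Mpo in spleen sepsis 1 and 2, do not allow an order.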
